A study of Homo sapiens with 4 samples.

Results

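The guanylate-binding protein (GBP) genes *GBP1*, *GBP2*, *GBP3* and *GBP4* were chosen by name and found by their Entrez gene identifiers (2633, 2634, 2635 and 115361), as 4 of the 46660 gene identifiers measured. They were followed in 4 RNA-seq libraries of U87MG and U251MG, both long-established lines grown from human glioblastoma. Each line gave 1 control library, from cells carrying the empty lentiviral vector pGreen (named shControl in the sample titles) and 1 library from cells carrying lentiviral short hairpin RNA against the ETS-family transcription factor gene *FLI1* (shFLI1). The paper's methods describe lentiviral infection, puromycin selection and mixed stable cells, which they name for PCR and western blotting. For RNA-seq the methods do not repeat this history or say which *FLI1* hairpin was used. If the libraries came from such cells, each is a pool of integrants and no single clone. With 1 library per condition, no spread between replicate cultures of a cell line could be measured, and differences within a cell line carry counting intervals only. Of the 4 genes, 3 had at least 10 counts in a library, and *GBP4* had fewer than 10 counts in every library.

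GBP proteins are large GTPases of the dynamin superfamily that are made in most cells after exposure to interferon, above all interferon-gamma. They bind guanine nucleotides, oligomerise on membranes and form coats on the vacuoles of intracellular pathogens and on bacteria in the cytosol, where they help to recruit caspases, ubiquitin ligases and other effectors. GBP1, GBP2 and GBP5 are prenylated at the C-terminus, which anchors them in membranes. Transcription of the genes is known to depend on factors of interferon signalling, IRF1 among them.

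The members lie in a cluster on chromosome 1 of GRCh38, with *GBP7* between *GBP2* and *GBP4*, and are transcribed from the minus strand. The order along the chromosome is *GBP3* (89006680 to 89022866), *GBP1* (89052319 to 89065208), *GBP2* (89106132 to 89126114) and *GBP4* (89181144 to 89198942), together spanning 192263 bases. Each canonical transcript has 11 exons. Their coding sequences are alike: *GBP1* and *GBP3* were identical at 91.6% of aligned bases, *GBP1* and *GBP2* at 82.4%, and *GBP2* and *GBP3* at 82.9%, whereas *GBP4* was 66.0% to 67.7% identical to the others. Reads shared by a pair of members could therefore be split between them by the counting. The canonical transcript of *GBP1* shared 93 of its 2834 stretches of 50 bases with *GBP3* and 32 with *GBP2*, and no such stretch with *GBP4*. No stretch of 100 bases was shared by any pair of canonical transcripts, and the paper's methods describe reads longer than that. How many reads were split was not measured.

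Promoter sequence of *GBP1*, *GBP3* and *GBP4* is shown because these genes are known interferon targets and because an interferon-stimulated response element (ISRE) core was found in each. The core searched for was GAAA, any 2 bases and GAAA, on both strands, in the window from 250 bases before to 50 bases after the RefSeq start (assembly GRCh38.p14). Promoter sequence was found for 3 of the 4 members, without *GBP2*. Each line gives 45 bases before and 8 bases after the core, 5′ to 3′ along the gene, with the core in capitals; it reads from the opposite strand in all 3. The stretches are chr1:89065318-89065380 for *GBP1*, chr1:89022847-89022909 for *GBP3* and chr1:89198929-89198991 for *GBP4*, all on the minus strand.

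GBP1: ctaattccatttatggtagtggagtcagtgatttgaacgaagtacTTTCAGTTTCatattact
GBP3: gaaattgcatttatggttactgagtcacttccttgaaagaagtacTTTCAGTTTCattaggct
GBP4: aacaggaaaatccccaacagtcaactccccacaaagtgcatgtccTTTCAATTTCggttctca

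The core began at position -127 of *GBP1*, at position 3 of *GBP3* and at position -4 of *GBP4*, counted from the start. In GENCODE, 3 of the 9 *GBP1* transcripts begin upstream of the core, the farthest at base 89065360. The *GBP1* and *GBP3* stretches carried the same core and were identical at 47 of 63 bases, compared with 20 of 63 for *GBP1* and *GBP4*. An ISRE core was present in 3.57% of 35116 promoter windows of the same length. The windows of *GBP6* and *GBP7*, genes of the family outside the members, held no ISRE core. *GBP3* also held a gamma-activated site (GAS, TTCNNNGAA) at position -15, a motif found in 7.66% of windows. The longer ETS site CCGGAA was present in 17.2% of windows and was not among the letters of the 3 member windows. The shorter ETS core GGAA was not counted over the windows. Read on either strand, GGAA does occur in each of the 3 printed stretches. These matches are descriptions of letters and were not tested for binding.

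The libraries held 12229780 to 28891055 summed counts. Levels are given as CPM, that is counts relative to library size, after scaling by the trimmed mean of M-values (TMM). *FLI1*, the targeted gene, was at 9.34 CPM in U87MG control, 2.34 CPM in U87MG shFLI1, 12.1 CPM in U251MG control and 3.71 CPM in U251MG shFLI1, which is 25.0% and 30.6% of control. Of the glial and glioblastoma markers, *VIM*, *NES*, *SOX2* and *CD44* had at least 1337 counts in every library, whereas *OLIG2* had at most 2 counts and *S100B* at most 11. *GFAP*, the astrocyte filament gene, was at 634, 1587, 20.4 and 93.8 CPM in the same order and rose (edgeR, adjusted P=0.00783), as did *FABP7* (edgeR, adjusted P=0.0168), which marks radial glia.

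*GBP1*, the most studied interferon-induced member, was at 111 CPM in U87MG control and 37.4 CPM in U87MG shFLI1 (1266 and 832 counts). In U251MG it was at 85.1 CPM in control and 5.81 CPM in shFLI1 (1517 and 174 counts). The U251MG shFLI1 library was therefore the lowest by a wide margin, and both shFLI1 libraries lay below both controls.

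*GBP2*, a prenylated member that is known to act beside GBP1 on coats, was at 65.9 CPM in U87MG control and 21.4 CPM in U87MG shFLI1 (755 and 475 counts). In U251MG it was at 64.8 CPM in control and 39.2 CPM in shFLI1 (1155 and 1175 counts). The control libraries were close to each other, and both shFLI1 libraries lay below them. Here the lowest library was U87MG shFLI1, not U251MG shFLI1. The nearly equal raw counts in U251MG came from libraries of unequal depth.

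*GBP3*, the member closest to *GBP1* in sequence, was at 18.7 CPM in U87MG control and 11.8 CPM in U87MG shFLI1 (214 and 262 counts). In U251MG it was at 33.9 CPM in control and 8.58 CPM in shFLI1 (604 and 257 counts). Both shFLI1 libraries lay below both controls, and the U251MG control library was the highest.

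*GBP4*, a member without a prenylation motif, had 1 count in U87MG control, 0 in U87MG shFLI1, 4 in U251MG control and 2 in U251MG shFLI1. The count of 0 allows a level of up to 0.135 CPM, the value of 3 counts in that library. *GBP4* was near the detection floor in every library, so a fall was not detectable at this depth, and neither shFLI1 library held more counts than its control. No fold change is given.

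**Figure D1:**
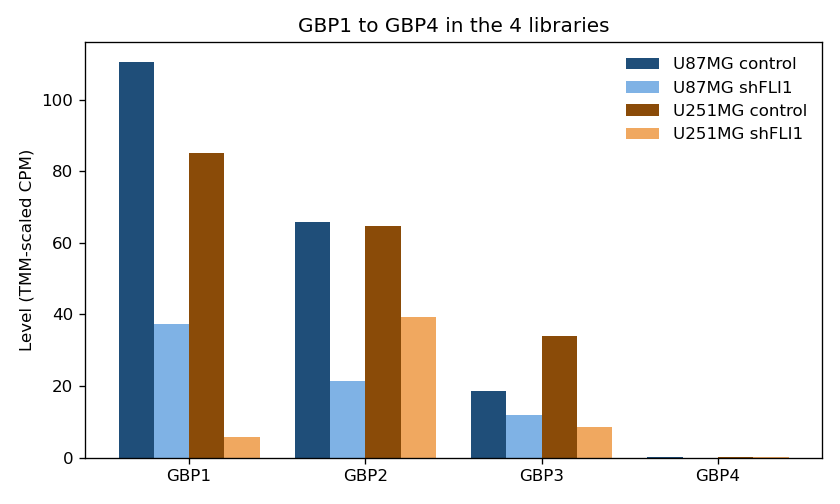
Level (TMM-scaled CPM, linear axis from 0) of *GBP1*, *GBP2*, *GBP3* and *GBP4*; each bar is 1 library, and no error is drawn because each condition has 1 library. The bar of *GBP1* in U251MG shFLI1 stands at 5.81 CPM beside 85.1 CPM in its control, and the *GBP4* bars are too low to see.

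The order of the members within a library was read from the authors' FPKM (fragments scaled to transcript length and library size), summed over the RNAs of a gene. *GBP1* was first in 3 of the 4 libraries, at 41.2 FPKM in U87MG control, 16.6 in U87MG shFLI1 and 32.8 in U251MG control. In each of these libraries *GBP2* was next (17.5, 6.41 and 18.4 FPKM), followed by *GBP3* (6.39, 4.58 and 12.4 FPKM). In U251MG shFLI1 the order changed to *GBP2* (11.1 FPKM), *GBP3* (3.31 FPKM) and *GBP1* (2.30 FPKM). *GBP1* thus made up 62.2%, 59.6% and 51.0% of the summed FPKM of the GBP genes in the first 3 libraries and 13.5% in U251MG shFLI1, where *GBP2* made up 65.1%. In U87MG the FPKM ratio of *GBP1* to *GBP2* was 2.35 in control and 2.60 in shFLI1, compared with 1.78 in U251MG control and 0.207 in U251MG shFLI1. The ratio thus moved little in U87MG and inverted in U251MG.

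**Figure D2:**
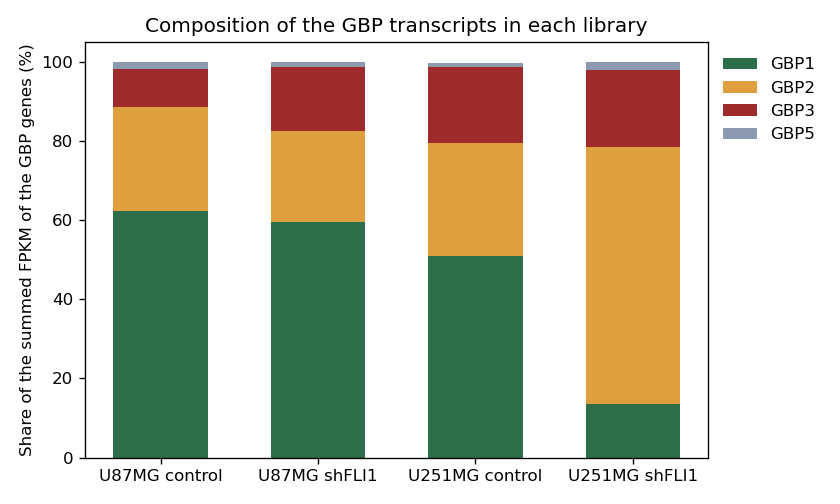
Share (%) of each GBP gene in the summed FPKM of the GBP genes, 1 stacked bar per library. *GBP1* fills 51.0% to 62.2% of the bar in 3 libraries and 13.5% in U251MG shFLI1, where *GBP2* fills 65.1%.

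The comparison of shFLI1 with control asked how far the GBP genes moved when *FLI1* was knocked down. *GBP1* was 2.95-fold lower in U87MG (log2 fold change -1.56, 95% counting interval -1.69 to -1.44) and 14.4-fold lower in U251MG (log2 fold change -3.85, interval -4.11 to -3.65). *GBP2* was 3.08-fold lower in U87MG (-1.62, interval -1.80 to -1.46) and 1.65-fold lower in U251MG (-0.72, interval -0.84 to -0.61). *GBP3* was 1.58-fold lower in U87MG (-0.66, interval -0.93 to -0.40) and 3.91-fold lower in U251MG (-1.97, interval -2.20 to -1.77). The 3 measured members were therefore lower in both cell lines, with different sizes in each.

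A gene was called within a cell line when it differed by more than 2-fold with a counting interval that excluded no change. By that rule *GBP1* and *GBP2* were called lower in U87MG, 2 of the 3 measured members, where 4.19% of 17355 genes were called lower and 7.21% higher. In U251MG, *GBP1* and *GBP3* were called lower, again 2 of 3, where 4.0% of 18222 genes were called lower and 4.17% higher. No measured member was called higher in either cell line. Of all genes tested, 1.85% had a lower log2 fold change than *GBP1* in U87MG and 0.22% in U251MG, where it ranked 41 from the lowest. For *GBP2* the shares were 1.70% in U87MG and 6.84% in U251MG, and for *GBP3* they were 8.25% and 1.40%.

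For the effect common to U87MG and U251MG, all 4 libraries entered edgeR's quasi-likelihood test with a term for the line and 1 residual degree of freedom, so the lines stand in for replicates. All 3 measured members fell, where 2.14% of 16649 genes fell and 0.919% rose. *GBP1* fell by 2.66 on the log2 scale (SE 0.44; edgeR, Benjamini-Hochberg adjusted P=0.0166). *GBP2* fell by 1.18 (SE 0.21; edgeR, adjusted P=0.0248) and *GBP3* fell by 1.36 (SE 0.28; edgeR, adjusted P=0.0402). Each was lower in 2 of 2 cell lines. The test draws the dispersion of each gene towards that of other genes, so SE and P do not rest on the gene's own residual alone. For *GBP1* the SE of 0.44 stands beside a difference of -2.29 between the log2 fold changes of the lines. The call for *GBP3* lay close to the threshold of 0.05 and was lost (edgeR, adjusted P=0.0733) when the TMM factors were taken from all genes instead of the genes kept for the test. Without the term for the cell line, none of the 3 passed (edgeR's quasi-likelihood test; 2 of 3 at an unadjusted P under 0.05).

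**Figure D3:**
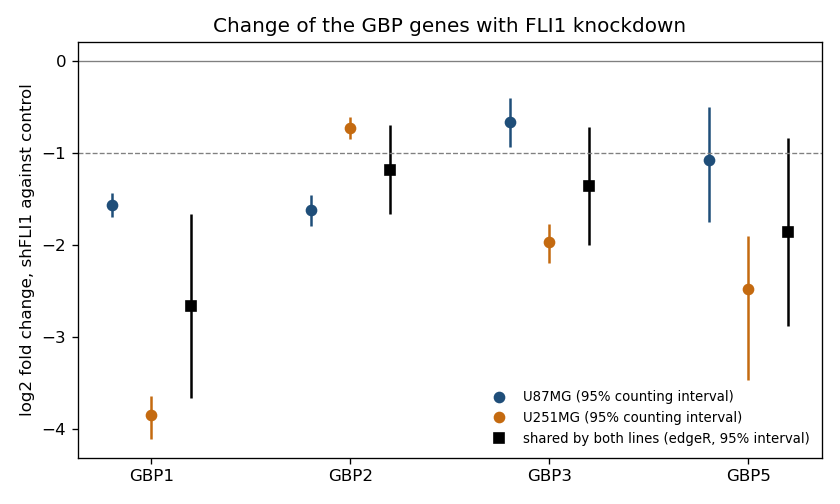
The log2 fold change, shFLI1 against control, of *GBP1*, *GBP2*, *GBP3* and *GBP5*. Circles are single cell lines with 95% counting intervals, squares are the shared effect with its 95% interval from edgeR, the solid line is no change and the dashed line is 2-fold lower. *GBP2* is lower in U87MG (-1.62) than in U251MG (-0.72), and the other 3 genes are lower in U251MG on this CPM scale. By FPKM the order of *GBP5* turns, with a large part of the sum from an RNA of 1.05 counts in U87MG control and 1.12 in U251MG shFLI1.

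The size of the change differed between the cell lines, and the order differed between members. The log2 fold change of *GBP1* was 2.29 lower in U251MG than in U87MG (difference -2.29, 95% counting interval -2.55 to -2.03). The difference for *GBP3* was also negative (-1.31, interval -1.64 to -0.97). For *GBP2* it had the opposite sign (0.90, interval 0.70 to 1.10). These intervals exclude 0 but cover counting error only, since the design leaves no residual degree of freedom for a test of the difference. The *FLI1* fold changes of the cell lines differed by 0.27 (interval -0.30 to 0.85). The control libraries themselves were close for *GBP2* (U251MG minus U87MG, log2 difference -0.03, interval -0.16 to 0.11), lower in U251MG for *GBP1* (-0.38, interval -0.49 to -0.27) and higher in U251MG for *GBP3* (0.85, interval 0.63 to 1.09).

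The table separates the RNAs of each gene. For *GBP1*, the RNA NM_002053 held at least 98.1% of the estimated counts in each library, and for *GBP2* NM_004120 held 99.3% to 99.7%. The summed counts of *GBP1* and *GBP2* therefore describe 1 RNA each. The FPKM sums lean more on other RNAs. In U87MG shFLI1, NM_002053 gave 14.64 of 16.64 FPKM of *GBP1*, and URS0000D6E75F gave 1.58 FPKM from 9.07 counts. In U87MG control, NM_004120 gave 16.03 of 17.54 FPKM of *GBP2*, and URS00008B4D4A gave 1.51 FPKM from 4.18 counts. *GBP4* counts came mainly from NM_052941, at most 3.30 counts in a library. *GBP3* was the exception, with 9 RNAs, of which 6 held at least 5% of its counts in a library.

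The main *GBP3* RNA, NM_018284, was estimated at 8.76 CPM in U87MG control and 7.00 CPM in U87MG shFLI1. In U251MG it was at 17.2 CPM in control and 2.45 CPM in shFLI1. Its share of the *GBP3* counts was 46.9% (95% Clopper-Pearson interval 39.9 to 53.7) in U87MG control and 59.4% (53.3 to 65.5) in U87MG shFLI1. The share was 50.9% (46.8 to 54.9) in U251MG control and 28.5% (23.0 to 34.3) in U251MG shFLI1. It thus moved up in one cell line and down in the other. On the log2 scale, NM_018284 differed by -0.32 in U87MG and -2.77 in U251MG, whereas XM_011541234 differed by -1.50 and -1.53. NM_001319179 differed by -0.96 and -1.61, and NM_001319180 by -1.01 and -2.45. XM_005270743 (0.722, 0, 0 and 0.846 CPM) and XM_017001013 (0.486 CPM in U251MG shFLI1 and 0 elsewhere) were estimated at 0 in at least 2 libraries each. The assignment of reads to such overlapping RNAs is an estimate, and its error was not available for these values.

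**Figure D4:**
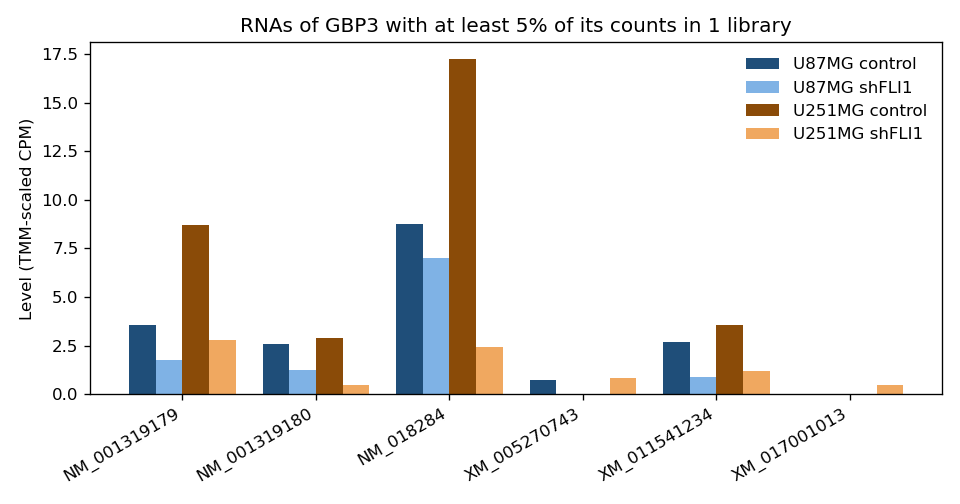
Level (TMM-scaled CPM, linear axis from 0) of the 6 *GBP3* RNAs that held at least 5% of its estimated counts in a library; each bar is 1 library. NM_018284 is the highest in 3 libraries, and in U251MG shFLI1 it stands at 2.45 CPM beside 2.79 CPM for NM_001319179.

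Of the other genes of the family, *GBP5*, a prenylated member known from inflammasome work, was at 4.19 CPM in U87MG control and 1.93 CPM in U87MG shFLI1 (48 and 43 counts). In U251MG it was at 3.98 CPM in control and 0.634 CPM in shFLI1 (71 and 19 counts). Its log2 fold changes were -1.08 (interval -1.74 to -0.49) in U87MG and -2.48 (interval -3.46 to -1.90) in U251MG. The shared effect of *GBP5* was -1.85 (SE 0.45) and did not pass the test (edgeR, Benjamini-Hochberg adjusted P=0.0706). The order of the cell lines turned with the authors' FPKM, by which *GBP5* in shFLI1 was at 29.2% of control in U87MG and 53.3% in U251MG, compared with 46.1% and 15.9% by CPM. These FPKM sums lean on the RNA URS00008BFB57. It gave 0.47 of 1.06 FPKM from 1.05 estimated counts in U87MG control. In U251MG shFLI1 it gave 0.22 of 0.32 FPKM from 1.12 counts, and it was at 0 in the other libraries. *GBP6* had at most 1 count, as did the pseudogene *GBP1P1*, and *GBP7* was not found among the genes with any count.

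The GBP genes were set against the 8 genes on either side of the cluster, to see whether the whole stretch of chromosome moved. None of the 8 neighbours (*PKN2*, *GTF2B*, *KYAT3*, *RBMXL1*, *LRRC8B*, *LRRC8C*, *LRRC8D* and *ZNF326*) was called in U87MG or U251MG, and none passed the shared test (edgeR's quasi-likelihood test, 0 of 8, smallest adjusted P=0.154). Their log2 fold changes lay between -0.53 and 0.55 in U87MG and between -0.27 and 0.51 in U251MG. The median was -0.08 in U87MG and -0.10 in U251MG, compared with 0.06 and 0.04 over all genes tested and with -1.56 and -1.97 for the 3 measured members. The log2 fold changes of *GBP1*, *GBP2* and *GBP3* lay below those of every neighbour in both cell lines. In U87MG, however, the counting interval of *GBP3* (-0.93 to -0.40) overlapped that of *LRRC8D* (-0.66 to -0.40). *KYAT3* and *RBMXL1* overlap on the same strand, so their reads may be shared.

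**Figure D5:**
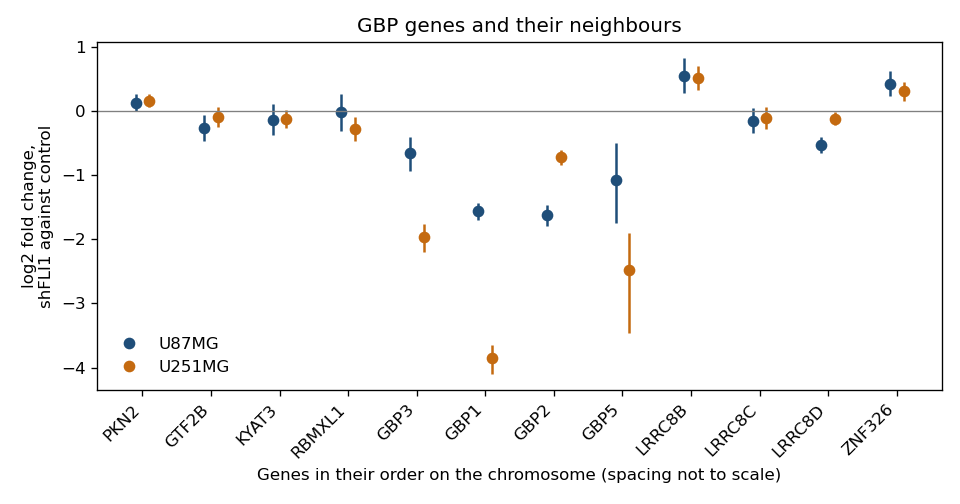
The log2 fold change, shFLI1 against control, of the GBP genes with at least 10 counts and of the 8 neighbouring genes, in their order on the chromosome (spacing not to scale), with 95% counting intervals. The neighbours lie between -0.53 and 0.55, and the values of *GBP1*, *GBP2*, *GBP3* and *GBP5* lie below them in both cell lines. In U87MG the intervals of *GBP3* and *GBP5* overlap that of *LRRC8D*.

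Genes that are known to act upstream of the GBP genes were counted over a list of 22 genes of interferon and cytokine signalling, of which 16 could be tested. Of these, 4 fell and none rose in edgeR's quasi-likelihood test, where 2.14% of all genes tested fell and 0.919% rose. The list's median shared log2 fold change was -0.07, compared with 0.01 over all genes tested. *STAT2*, a transcription factor of type I interferon signalling, was at 147 and 57.3 CPM in U87MG control and shFLI1 and at 212 and 74.6 CPM in U251MG control and shFLI1, and fell by 1.45 on the log2 scale (edgeR, adjusted P=0.00127). *IRF1*, which is known to bind GBP promoters, fell by 1.36 (edgeR, adjusted P=0.0135) and *IRF9*, which binds DNA beside STAT2, fell by 1.15 (edgeR, adjusted P=0.00577). The receptor genes *IFNGR1*, *IFNGR2*, *IFNAR1* and *IFNAR2* and the kinase genes *JAK1*, *JAK2* and *TYK2* did not pass, with shared log2 fold changes of 0.00, -0.19, 0.49, 0.16, 0.00, 0.08 and -0.11. The ligand gene *IFNB1* had 0, 2, 3 and 1 counts in the 4 libraries, *TNF* had at most 1 count, and *IFNG* was not found among the genes with any count.

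Other genes known to be induced by interferon-gamma were counted over a list of 12, of which 7 could be tested. In the shared test 3 of them fell, where 2.14% of all genes tested fell. *IDO1*, an enzyme of tryptophan breakdown, fell by 3.10 (edgeR, adjusted P=0.0168), *NLRC5*, a regulator of MHC class I genes, fell by 2.54 (edgeR, adjusted P=0.000158), and *WARS1*, a tryptophanyl-tRNA synthetase, fell by 1.08 (edgeR, adjusted P=0.00698). The median of the list was -1.14. *GBP1* therefore lay between *IDO1* and *NLRC5* in size, and *GBP2* and *GBP3* lay between *NLRC5* and *WARS1*. The other tested genes of the list did not pass. *CXCL10*, with 10, 3, 26 and 1 counts, had the lowest shared log2 fold change of the list, at -3.82 (edgeR, adjusted P=0.0531). *ICAM1* was at -1.14 and *GCH1* at 0.02 (edgeR, adjusted P=0.1905 and 0.977). *CIITA*, the regulator of MHC class II genes, had a shared log2 fold change of 0.06 (edgeR, adjusted P=0.957).

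Partners of GBP proteins moved in part. Among 15 effectors that are known to join GBP coats or to act after them, 11 could be tested, 5 fell and none rose. Of all genes tested, 2.14% fell and 0.919% rose. The median was -0.78, compared with 0.01 over all genes tested. *APOL3*, an apolipoprotein L that attacks bacterial membranes, was at 3.23, 0.450, 8.41 and 0.367 CPM in U87MG control, U87MG shFLI1, U251MG control and U251MG shFLI1 and fell by 3.77 (edgeR, adjusted P=0.00565). *CASP1*, the inflammasome caspase, was at 4.54, 1.12, 8.69 and 1.94 CPM and fell by 2.11 (edgeR, adjusted P=0.0103). Of the ubiquitin ligase genes in the list, *TRIM21* fell by 1.56, *RNF213* fell by 0.98 and *RBCK1* fell by 0.86 (edgeR, adjusted P=0.0022, 0.019 and 0.0168). *RNF31* and *SHARPIN*, whose products form the linear ubiquitin ligase complex with that of *RBCK1*, did not pass, with shared log2 fold changes of -0.60 and -0.64 (edgeR, adjusted P=0.0642 and 0.0706). Of the 6 genes for prenylation and regulation of GBP proteins (*FNTA*, *FNTB*, *PGGT1B*, *RCE1*, *ICMT* and *PIM1*), none was called in a cell line and none passed the shared test (edgeR's quasi-likelihood test, smallest adjusted P=0.178), and their median was -0.17.

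Within the dynamin superfamily, 2 of the 12 other GTPases fell and 2 rose, where 2.14% of all genes tested fell and 0.919% rose. The median was 0.14, compared with 0.01 over all genes tested. *MX2*, an antiviral GTPase, was at 76.4, 3.15, 169 and 3.64 CPM in the same order of libraries and fell by 5.12 (edgeR, adjusted P=4.25e-05). *MX1*, its antiviral paralog, was at 504, 57.9, 736 and 34.9 CPM and fell by 3.77 (edgeR, adjusted P=0.000445). *DNM3*, a dynamin of endocytosis, rose by 1.17 (edgeR, adjusted P=0.0168), and *OPA1*, which fuses the inner mitochondrial membrane, rose by 0.71 (edgeR, adjusted P=0.0362). The atlastins, which are the GTPases closest to the GBP fold, did not pass, with shared log2 fold changes of -0.30 for *ATL1*, 0.11 for *ATL2* and 0.38 for *ATL3*. *GBP1* lay between the MX genes and the atlastins in size.

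The genes with the profile most like each member over the 4 libraries were found among 13361 genes by the distance of centred log2 CPM, and this is a description over 4 points that share 4 libraries. For *GBP1* they were *IDO1* (distance 0.593), *SLC15A3* (0.624), a peptide and histidine transporter gene, and *ISG15* (0.890), a ubiquitin-like modifier gene. *ISG15* differed by -2.47 in U87MG and -3.79 in U251MG on the log2 scale. For *GBP2* they were *GAS1* (0.0844), *H3C14* (0.151), a histone H3 gene, and *BCAR3* (0.214). *GAS1* differed by -1.56 and -0.66, so it too was lower by more in U87MG. For *GBP3* they were *ZNFX1* (0.114), *GPNMB* (0.191) and *ISG20* (0.199), and *ZNFX1* differed by -0.72 and -1.86. The lists of the 3 members shared no gene. *GBP4* had too few counts to be compared.

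Markers of other cells that express GBP genes were looked up beside these values. *PTPRC*, the pan-leukocyte marker, had 0, 0, 1 and 5 counts in U87MG control, U87MG shFLI1, U251MG control and U251MG shFLI1, and *ITGAM* had at most 1 count. The macrophage and microglia markers measured, 5 of the 6 listed, summed to 5.50, 1.44, 10.6 and 2.97 CPM in that order. Of these, *CD68*, a lysosomal gene that is not restricted to macrophages, had 47, 12, 163 and 14 counts and fell by 3.67 (edgeR, adjusted P=0.00354). The summed level was lower in both shFLI1 libraries, but *CD68* made up most of it in the controls (4.10 CPM in U87MG and 9.14 CPM in U251MG). In U251MG, *CD14* (0.673 CPM in control and 1.04 in shFLI1) and *CSF1R* (0.673 and 1.30) were higher in shFLI1. In U87MG both were lower in shFLI1. The other macrophage markers tested did not pass: *CD14* had 10, 17, 12 and 31 counts and *CSF1R* had 5, 3, 12 and 39 counts, with shared log2 fold changes of 0.23 and 0.13, and the median of the 3 tested was 0.13. The endothelial markers summed to 5.68, 3.15, 0.841 and 1.04 CPM, with *PECAM1* at most 3 counts. None of the T cell markers looked up (*CD3D*, *CD3E* and *CD2*) was found among the genes with any count. All 4 libraries came from cell lines grown in culture. The part of other cells in the GBP values was not tested, and in bulk libraries fewer cells of a type and less RNA per cell cannot be told apart.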

How the data were processed

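The sample labels gave the condition of each library. The authors selected mRNA with poly-T beads, used HISAT2 for alignment to GRCh38 and StringTie for FPKM; the labels and the methods name different kits. The deposited estimated counts per RNA are not normalized, and the tool behind them is not given in the sources used here. FPKM was used as deposited. A further 10 value columns (TPM and means) were not used, nor were 31346 circular RNAs, which the table does not pair with genes.

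Estimated counts of 185042 linear RNAs were summed by gene identifier, rounded to whole numbers and scaled by TMM in edgeR 4.0.16 (R 4.3.3); of 24411 Entrez identifiers, 23775 had a RefSeq symbol. Fold changes within a cell line were computed where either library reached 10 counts, with a prior count of 2 and 95% Clopper-Pearson intervals of the read proportion; these and the floor of 3 counts cover counting error only. The shared effect used edgeR's quasi-likelihood test on genes kept by filterByExpr, with Benjamini-Hochberg adjustment over all genes tested at 0.05. Its SE and P rest on the spread between these libraries, moderated by the dispersion of other genes. They do not measure a spread between replicate cultures, and nothing says that the cell lines were handled as independent batches. Scripts were tested on simulated counts. DESeq2 1.42.0, other scalings, filters, prior counts, fold thresholds and FPKM served as alternatives. Python was version 3.11.15.

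The members and gene lists were chosen with earlier results of these data known. The genes named were the members, *FLI1*, the 3 genes most like each member, and of each list the 2 with the largest fall and the 2 with the largest rise past the shared test. Further names (*IRF1*, *IRF9*, *WARS1*, *CXCL10*, *ICAM1*, *GCH1*, *TRIM21*, *RNF213*, *RBCK1*, *RNF31*, *SHARPIN*, *CIITA*, the receptors, kinases, ligands and atlastins, and single markers) were added after their values were seen. A gene within this rule is not reported here.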

Additional observations from a re-analysis of the deposited data

How the results depend on the processing

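*GBP1*, *GBP2* and *GBP3* were lower in both cell lines under every scaling, prior count and filter run and with the authors' FPKM. In U87MG, *GBP1* was at -1.40 on the log2 scale with total counts and at -1.30 with FPKM (log2 of value plus 0.1), and *GBP2* at -1.44 with FPKM, compared with -1.56 and -1.62. At a 4-fold threshold, 0 members were called in U87MG and 1 in U251MG, compared with 2 each. In edgeR's quasi-likelihood test without the cell line term, 0 of 3 members (2 at an unadjusted P under 0.05; DESeq2 with the term called 3) and 0 genes of 16649 passed (725 at an unadjusted P under 0.05; DESeq2 with the term called 417), compared with 509 genes. With a filter of 1 count in any library, 1303 genes passed. TMM factors from all genes, an alternative chosen after seeing the data, gave 373 genes and left *GBP3* at an adjusted P of 0.0733 (edgeR); over all alternatives the adjusted P ran from 2.17e-44 to 1.0 for *GBP1*, 2.29e-09 to 0.981 for *GBP2* and 8.08e-09 to 0.963 for *GBP3*. No library could be left out of the shared test, since 3 libraries leave no residual degree of freedom. Depth limits *GBP4*, which had fewer than 10 counts in every library.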

Other observations

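*GBP5* counts moved between its RNAs. NM_052942 was estimated at 28.6 counts in U87MG control, 43.0 in U87MG shFLI1, 71.0 in U251MG control and 0 in U251MG shFLI1. NM_001134486 was estimated at 18.4, 0, 0 and 17.9 counts in the same order, so U251MG shFLI1 held the RNA that its control lacked. The summed *GBP5* level in U251MG shFLI1 was 15.9% of control by CPM and 53.3% of control by the authors' FPKM, and in U87MG shFLI1 it was 46.1% by CPM and 29.2% by FPKM. Another RNA, URS00008BFB57, had 1.05 counts but 0.47 FPKM in U87MG control. In U251MG shFLI1 it had 1.12 counts but 0.22 FPKM, so the FPKM sums lean on about 1 count each. The estimates rest on at most 71 counts in a library, and no error of the assignment between RNAs was available for them.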
